A study of Arabidopsis thaliana with 45 samples.

Results

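The oldest first true leaves of the Arabidopsis thaliana ageing series were compared between the line labelled tcx5/6 at D45 and the wild type Col-0 at D40. The comparison holds 6 of the 45 libraries of the series, 3 per group, taken by their labels. The comparison itself and the gene lists below were chosen with earlier results of these data known. The tcx5/6 group is labelled with genotype tcx5/6 in the Col-0 background and 45 DAG, and the Col-0 group with 40 DAG. DAG is the labels' own unit and is not spelled out there. Both groups grew under long days of 16 h of light and 8 h of dark, and polyadenylated RNA of first true leaves was sequenced. The leaves labelled tcx5/6 were 5 days older, so genotype and day differ together and cannot be told apart in any value below. The labels do not say whether the 3 libraries of a group came from separate plants, pools or repeated preparations, nor whether the line is 1 isolate, so p-values measure the spread between libraries, which may be technical.

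Leaf senescence is the last phase of a leaf's life, in which the cell takes apart its chloroplasts and proteins and exports nitrogen, metals and sugars to growing organs. Transcription factors of the NAC and WRKY families switch it on together with ethylene, abscisic acid and salicylic acid, and sugars, light and stress change its timing. TCX5 and TCX6 belong to a family of cysteine-rich DNA-binding proteins, and act in DREAM, a repressor complex with targets among cell-cycle and DNA methyltransferase genes.

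Levels are normalised read counts, which are comparable between libraries for 1 gene but not between genes of different length. Between 18093190 and 25002078 reads per library lay in genes in the tcx5/6 group, and between 16824317 and 18542754 in the Col-0 group. A gene was called when the adjusted p of limma, with Benjamini-Hochberg adjustment over all genes tested, was under 0.05, and differences are log2(count + 1), tcx5/6 D45 minus Col-0 D40. Log2 levels across genes correlated at 0.932 to 0.961 between the tcx5/6 libraries and at 0.907 to 0.934 between the Col-0 libraries (Pearson, a description over 19822 genes that are not independent). Col-0 replicate 1 and tcx5/6 replicate 3 were the least alike of all pairs, at 0.588.

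The targeted genes were read first. TCX5 (AT4G29000) had 412, 452 and 289 normalised counts in the libraries labelled tcx5/6 D45, against 474, 451 and 468 in Col-0 D40. The groups overlapped and the difference was not called (log2 -0.30 ± 0.23 SE, adjusted p = 0.33). A gene on the other strand overlaps it, and its reads would make 14.9% of the mean in tcx5/6 and 19.2% in Col-0. TCX6 (AT2G20110) had 49.5, 15.1 and 37.2 in tcx5/6 D45, against 418, 112 and 270.1 in Col-0 D40. Every tcx5/6 library lay below every Col-0 library (log2 -2.90 ± 0.63 SE, adjusted p = 0.012). At D13, by contrast, TCX6 lay between 65.9 and 142 in tcx5/6 and between 16.6 and 33.8 in Col-0, so it was the higher in tcx5/6, and at D18 and D23 the ranges of the lines overlapped. At D30 TCX6 was the lower in tcx5/6, between 37.7 and 50.4, against 69.8 and 94.9 in Col-0. The libraries labelled tcx5/6 were thus not shown to have less TCX5 transcript at this spread, and the labels do not say which part of either gene is changed. The group is called the libraries labelled tcx5/6, shortened to tcx5/6, and each direction below rests on that label.

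Of 19822 genes tested, 3270 were higher and 4046 lower in tcx5/6 D45 than in Col-0 D40. These are 16.5% and 20.4% of the genes tested, 36.9% in all, and they are the background for every list below. A difference of 2-fold or more was seen for 2787 of the higher and 3023 of the lower genes. The median log2 difference over all genes was -0.03. The excess of lower genes depended on the scaling: after quantile normalisation 3738 were higher and 3461 lower, and with TMM factors 3411 were higher and 3811 lower. Without any 1 of the tcx5/6 libraries the total fell to 4404 (without replicate 1), 3906 (without replicate 2) or 4117 (without replicate 3), and 3368 of the 7316 genes were called whichever of the 6 libraries was left out.

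Most genes of the senescence, autophagy and immunity lists were lower in tcx5/6, and most of the Calvin cycle and anthocyanin lists higher, although the tcx5/6 leaves were older. The cysteine protease gene SAG12 (AT5G45890), a standard marker of the process, had 141, 22.6 and 0 in tcx5/6 D45, against 246622, 208951 and 125164 in Col-0 D40. Its difference was -13.60 ± 1.55 SE (adjusted p = 0.0024). At the other end CHS (AT5G13930), chalcone synthase, the entry enzyme of flavonoid synthesis, had 58108, 14041 and 1370 in tcx5/6 D45, against 21.5, 0 and 4.76 in Col-0 D40. That difference was 11.002 ± 1.51 SE (adjusted p = 0.0033). The 3 tcx5/6 libraries were far apart, with replicate 1 the highest, and the lowest of them lay above every Col-0 library.

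Among the 10 named genes with the largest falls, several encode enzymes of defence and wall breakdown. DOX1 (AT3G01420), an alpha-dioxygenase that makes oxylipins, had 1.55, 0 and 0 in tcx5/6 D45, against 70955, 11210 and 5575 in Col-0 D40 (log2 -13.55 ± 0.90 SE, adjusted p = 8.4e-04). PGAZAT (AT2G41850), a polygalacturonase that loosens pectin where organs separate, was at 0 in all 3 tcx5/6 libraries, against 21982, 1047 and 7259 in Col-0 D40. Against a floor of 3 reads over the group it was at least 11556-fold lower in tcx5/6 by the Col-0 mean, which replicate 1 raised. KTI1 (AT1G73260), a Kunitz protease inhibitor, had 6.18, 3.01 and 6.57 in tcx5/6 D45, against 75849, 21972 and 10745 in Col-0 D40 (log2 -12.09 ± 0.67 SE, adjusted p = 3.4e-04). In each of these genes Col-0 replicate 1 held the highest level, and no tcx5/6 library reached any Col-0 library. The others of the 10 besides SAG12 were DIN2, the alcohol dehydrogenase ELI3-2, the glyoxalase GLYI4, the microtubule-associated MAP18, the glutathione transferase GSTU3 and the cytochrome P450 CYP82C2. MAP18, GSTU3 and CYP82C2 were at 0 in all 3 tcx5/6 libraries and, by group means, were at least 1382-fold, 2262-fold and 1344-fold lower there.

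Among the 10 named genes with the largest rises, 4 besides CHS make or regulate anthocyanins and are described with that pathway. BGLU18 (AT1G52400), a glucosidase of endoplasmic reticulum bodies that releases abscisic acid from its glucose ester, had 2139, 4195 and 16618 in tcx5/6 D45, against 1.54, 0 and 17.8 in Col-0 D40 (log2 10.51 ± 1.145 SE, adjusted p = 0.0022). MBP1 (AT1G52040), a myrosinase-binding protein, had 2373, 2843 and 8776 in tcx5/6 D45, against 0, 109 and 11.9 in Col-0 D40 (log2 8.44 ± 1.52 SE, adjusted p = 0.0071). In both, tcx5/6 replicate 3 was the highest, the reverse of CHS. NUDT24 (AT5G19470), a nudix hydrolase, and XTH31 (AT3G44990), a xyloglucan-modifying wall enzyme, were at 0 in all 3 Col-0 libraries. By group means they were at least 2036-fold and 275-fold higher in tcx5/6. ELP is described with the D30 leaves.

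**Figure D1:**
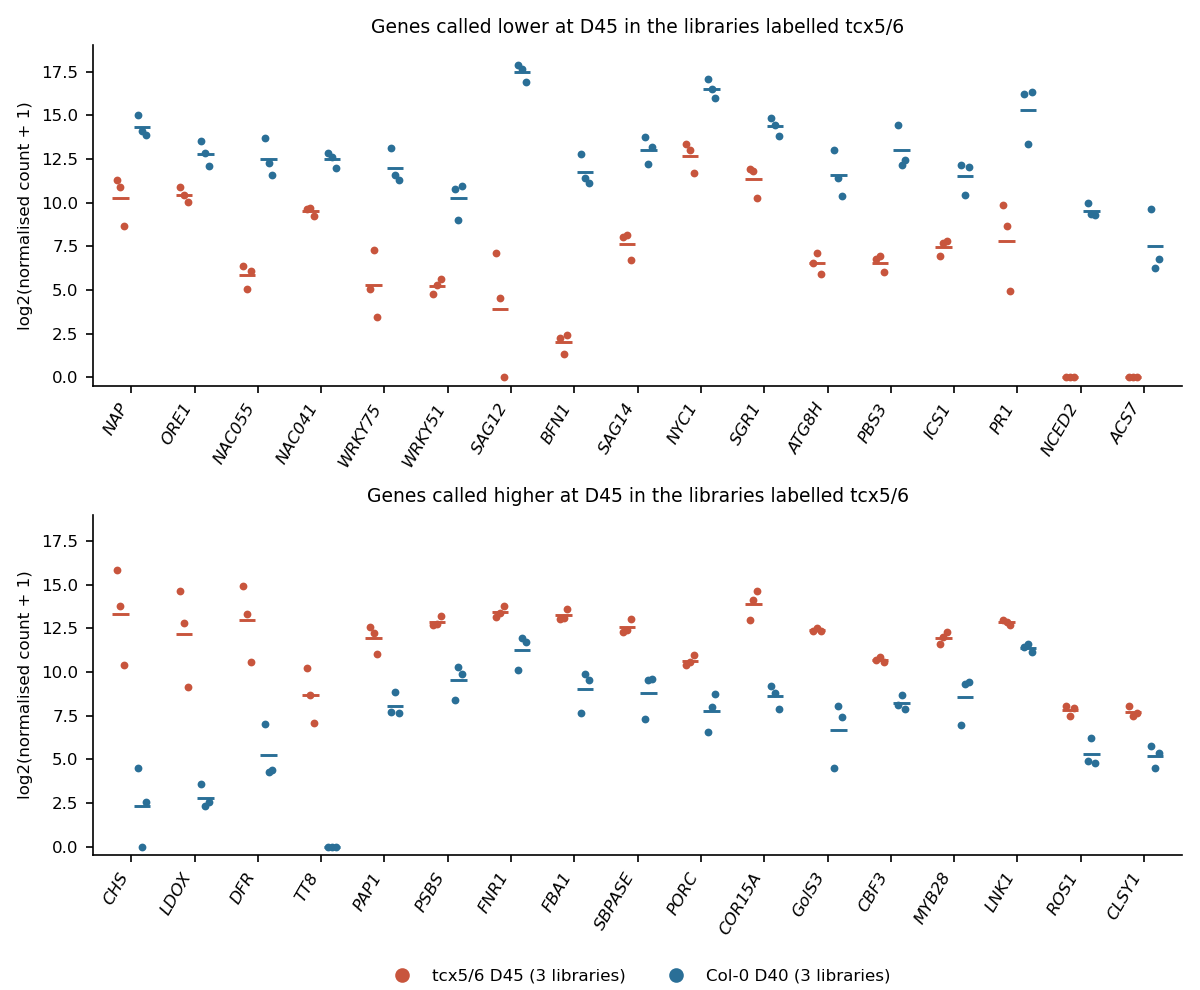
Normalised counts (log2(count + 1)) of genes called lower (top) and higher (bottom) in tcx5/6, 1 point per library, with tcx5/6 D45 in red left of Col-0 D40 in blue, and a bar at the mean of the 3 log2 values. The groups do not overlap in any gene plotted, but these genes were picked among those called, so this adds no support.

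Most of the NAC and WRKY factors on the senescence lists were lower in tcx5/6. Of 20 NAC genes measured, 0 were higher and 14 lower, with a median log2 difference of -2.01, against -0.03 over all genes. Without tcx5/6 replicate 1 or 3, 10 were lower. NAC055 (AT3G15500), a stress and senescence NAC factor, had 81.9, 32.4 and 66.8 in tcx5/6 D45, against 13257, 4945 and 3108 in Col-0 D40 (log2 -6.68 ± 0.56 SE, adjusted p = 0.0016). NAC019 (AT1G52890), its close relative, had 542, 462 and 195 in tcx5/6 D45, against 20284, 7992 and 4640 in Col-0 D40 (log2 -4.63 ± 0.58 SE, adjusted p = 0.0028). NAC041 (AT2G33480) had 799, 829.8 and 594 in tcx5/6 D45, against 7234, 6242 and 4099 in Col-0 D40 (log2 -2.96 ± 0.26 SE). The groups were apart in all 3 genes. NAP (AT1G69490) and ORE1 (AT5G39610), the best known positive regulators of leaf senescence, were named after their values were seen. NAP had 2491, 1935 and 412 in tcx5/6 D45, against 33405, 17814 and 14767 in Col-0 D40 (log2 -4.04 ± 0.67 SE, adjusted p = 0.0056). ORE1 had 1890, 1416 and 1032 in tcx5/6 D45, against 11651, 7230 and 4424 in Col-0 D40 (log2 -2.36 ± 0.38 SE, adjusted p = 0.0052). Both were expressed in every tcx5/6 library, at levels below the lowest Col-0 library.

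Of 19 WRKY genes measured, 0 were higher and 17 lower (median log2 -2.67), and 11 were lower without tcx5/6 replicate 1. WRKY51 (AT5G64810) had 26.3, 38.4 and 48.2 in tcx5/6 D45, against 1732, 515 and 2024 in Col-0 D40 (log2 -5.02 ± 0.54 SE, adjusted p = 0.0022). WRKY18 (AT4G31800), which acts in immune responses, had 451, 479 and 383 in tcx5/6 D45, against 6363, 2970 and 12593 in Col-0 D40 (log2 -3.83 ± 0.47 SE). WRKY45 (AT3G01970) and WRKY25 (AT2G30250) were lower by less, with log2 differences of -2.24 and -2.06. WRKY75 (AT5G13080), a positive regulator of senescence that was named after its values were seen, had 32.5, 155 and 9.86 in tcx5/6 D45, against 8817, 3042 and 2566 in Col-0 D40 (log2 -6.74 ± 0.93 SE, adjusted p = 0.0034). The 3 tcx5/6 libraries differed over a wide range for this gene, with replicate 2 the highest, and still lay below Col-0.

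Promoters of the called genes were read for known motifs, from 250 bases before to 50 bases after the annotated gene start in RefSeq TAIR10.1, which gave a window for 18263 of the genes tested. The W-box, TTGACC or TTGACT on either strand, is bound by WRKY factors. It was found in 27.3% of promoters of genes higher in tcx5/6, in 41.8% of those lower in tcx5/6 and in 33.2% of all genes tested. Among lists mostly lower in tcx5/6, the W-box was in 28.6% of immunity, 30% of NAC and 47.4% of WRKY promoters. Among lists with 0 members lower, it was in 40% of flavonoid and anthocyanin and 20.9% of photosystem promoters. The G-box, CACGTG, was in 10.06% of the higher, 9.41% of the lower and 8.89% of all promoters, and its matches can overlap those of the next motif. The abscisic acid response element, ACGTGTC or ACGTGGC on either strand, was in 9.61% of the higher, 9.26% of the lower and 9.04% of all promoters. The evening element, AAAATATCT on either strand, was in 4.06% of the higher, 2.93% of the lower and 3.10% of all promoters. E2F sites, TTTCCCGC, TTTGGCGC or TTTCGCGC on either strand, were in 1.04% of the higher, 0.706% of the lower and 1.38% of all promoters. These shares are a description without a test, and a match does not show binding.

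Promoters of 4 of the named genes are shown to let the motif content be read beside the direction, as the 250 bases before the gene start, 5′ to 3′ on the gene's strand, with W-boxes in capitals in the first 3 and the abscisic acid response element in capitals in GolS3. CYP82C2 (chr4:15462100-15462349, plus strand) and CLSY3 (chr1:1623490-1623739, minus strand) were lower in tcx5/6, and LDOX (chr4:12006210-12006459, minus strand) was higher, with 3 W-boxes in each window. In GolS3 (chr1:3019389-3019638, plus strand), higher in tcx5/6, the element was matched on both strands, the 2 matches overlap, and a G-box lies inside them. Positions are those of TAIR10.1, which may not be the build behind the deposited counts.
CYP82C2: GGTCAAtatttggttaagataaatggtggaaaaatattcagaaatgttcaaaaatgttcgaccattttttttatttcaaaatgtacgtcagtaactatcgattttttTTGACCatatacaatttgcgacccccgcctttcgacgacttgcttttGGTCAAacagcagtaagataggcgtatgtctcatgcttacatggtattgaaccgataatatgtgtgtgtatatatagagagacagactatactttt
CLSY3: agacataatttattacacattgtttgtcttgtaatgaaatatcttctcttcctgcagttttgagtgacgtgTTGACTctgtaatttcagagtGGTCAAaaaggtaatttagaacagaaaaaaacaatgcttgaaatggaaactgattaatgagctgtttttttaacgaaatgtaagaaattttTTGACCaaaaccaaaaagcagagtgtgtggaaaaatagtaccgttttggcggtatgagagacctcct
LDOX: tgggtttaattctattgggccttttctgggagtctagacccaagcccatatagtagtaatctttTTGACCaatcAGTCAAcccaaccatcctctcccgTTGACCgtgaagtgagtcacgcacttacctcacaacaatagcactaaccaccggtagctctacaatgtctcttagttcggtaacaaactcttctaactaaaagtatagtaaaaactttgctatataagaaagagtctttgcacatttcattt
GolS3: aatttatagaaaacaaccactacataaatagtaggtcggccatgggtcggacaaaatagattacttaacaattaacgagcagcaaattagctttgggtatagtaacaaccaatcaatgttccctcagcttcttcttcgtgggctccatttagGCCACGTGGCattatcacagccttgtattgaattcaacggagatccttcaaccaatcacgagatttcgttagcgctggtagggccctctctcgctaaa

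Downstream senescence genes followed the same direction. Of 22 senescence-associated proteases and other SAG genes, 0 were higher and 16 lower, with a median of -3.52. Without tcx5/6 replicate 2 or 3, 12 were lower. BFN1 (AT1G11190), a nuclease that degrades RNA and DNA in dying cells, had 3.86, 1.51 and 4.38 in tcx5/6 D45, against 7006, 2737 and 2242 in Col-0 D40 (log2 -9.76 ± 0.53 SE, adjusted p = 3.3e-04). SAG14 (AT5G20230), a blue copper-binding protein, had 265, 282 and 105 in tcx5/6 D45, against 13800, 4690 and 9319 in Col-0 D40 (log2 -5.40 ± 0.49 SE). SAG20 (AT3G10985), a wound-induced protein, had 1835, 1996 and 1680 in tcx5/6 D45, against 8671, 6728 and 7188 in Col-0 D40 (log2 -2.03 ± 0.18 SE, adjusted p = 0.0017). The range within the list ran from a nuclease near its floor to SAG20, which kept a substantial level in tcx5/6.

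Chlorophyll breakdown was split between the senescence enzymes and others. Of 14 genes, 8 were lower and 4 higher, with a median of -1.18, and 5 were lower without tcx5/6 replicate 2 or 3 or Col-0 replicate 1 or 2, and 2 higher without tcx5/6 replicate 1. NYC1 (AT4G13250), the reductase that starts chlorophyll b breakdown, had 10409, 8205 and 3293 in tcx5/6 D45, against 137058, 94110 and 64572 in Col-0 D40 (log2 -3.84 ± 0.51 SE, adjusted p = 0.0030). SGR1 (AT4G22920), the magnesium dechelatase behind the stay-green trait of pea, had 3895, 3635 and 1233 in tcx5/6 D45, against 29621, 22738 and 14663 in Col-0 D40 (log2 -3.05 ± 0.48 SE, adjusted p = 0.0050). MES16 (AT4G16690), an esterase that acts on the end products, was lower too (log2 -4.04 ± 0.61 SE). RCCR (AT4G37000), the reductase that acts after ring opening, went the other way, with 2143, 1834 and 1800 in tcx5/6 D45, against 460.0, 842 and 510.4 in Col-0 D40 (log2 1.72 ± 0.25 SE, adjusted p = 0.0041). The chlorophyllase CLH1 (AT1G19670), named after its values were seen, was also higher, with 864, 386 and 1588 in tcx5/6 D45, against 1.54, 93.4 and 45.2 in Col-0 D40 (log2 5.18 ± 1.27 SE, adjusted p = 0.019). The CLH1 call was lost without tcx5/6 replicate 1 (adjusted p = 0.058) or replicate 3 (adjusted p = 0.068).

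Recycling genes were lower as a group. Of 19 autophagy genes, 0 were higher and 17 lower (median -1.28), and 11 were lower without tcx5/6 replicate 1 or 3 or Col-0 replicate 2. ATG8H (AT3G06420), a small protein that coats the autophagosome membrane, had 94.3, 136 and 59.1 in tcx5/6 D45, against 8452, 2717 and 1314 in Col-0 D40 (log2 -5.08 ± 0.65 SE, adjusted p = 0.0029). NBR1 (AT4G24690), a cargo receptor of autophagy, had 11317, 10072 and 9179 in tcx5/6 D45, against 34745, 27842 and 27965 in Col-0 D40 (log2 -1.56 ± 0.25 SE, adjusted p = 0.0052). The 2 members differed widely in the size of their fall.

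Of 20 genes of nitrogen and metal remobilisation, 1 was higher and 9 lower (median -1.36). Without tcx5/6 replicate 2 or 3, 7 were lower, and without any 1 tcx5/6 library 0 were higher. GDH2 (AT5G07440), a glutamate dehydrogenase, had 1064, 993 and 793 in tcx5/6 D45, against 14813, 5894 and 4193 in Col-0 D40 (log2 -2.92 ± 0.44 SE, adjusted p = 0.0042). NRT1.5 (AT1G32450), a nitrate transporter, was lower by a like amount (log2 -2.97 ± 0.48 SE). ASN1 (AT3G47340), the dark-inducible asparagine synthetase, had 3.09, 7.53 and 30.7 in tcx5/6 D45, against 3188, 1905 and 1049 in Col-0 D40 (log2 -7.49 ± 0.76 SE, adjusted p = 0.0019). ASN1 was near its floor in tcx5/6 replicate 1 and well expressed in all Col-0 libraries.

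Of 18 genes of sugar transport and sugar starvation, 3 were higher and 12 lower (median -1.30), and 8 were lower without tcx5/6 replicate 2 or 3. DIN10 (AT5G20250), a raffinose synthase family gene induced in the dark, had 49.5, 40.7 and 147 in tcx5/6 D45, against 11017, 8486 and 4991 in Col-0 D40 (log2 -6.84 ± 0.51 SE, adjusted p = 0.0012). DIN2 (AT3G60140), a glycosyl hydrolase of the same dark-induced group, had 13.9, 3.01 and 6.57 in tcx5/6 D45, against 55312, 9269 and 3856 in Col-0 D40 (log2 -10.67 ± 0.94 SE). CWINV1 (AT3G13790), the cell wall invertase that splits sucrose outside the cell, was lower as well (log2 -4.80 ± 0.60 SE). All 3 higher members were SWEET genes, which encode sugar uniporters, although 3 other SWEET genes were lower, and 2 of the higher ones are described here after their values were seen. SWEET17 (AT4G15920), a vacuolar fructose carrier, had 644, 749 and 667 in tcx5/6 D45, against 0, 42.7 and 4.76 in Col-0 D40 (log2 6.76 ± 1.203 SE, adjusted p = 0.0069). SWEET13 (AT5G50800) had 1665, 1239 and 1063 in tcx5/6 D45, against 36.9, 315 and 66.6 in Col-0 D40 (log2 3.80 ± 0.71 SE, adjusted p = 0.0079).

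Salicylic acid and immunity genes were among the most widely lowered. Of 27 measured, 0 were higher and 21 lower (median -3.24). ICS1 (AT1G74710), isochorismate synthase, which makes the precursor of salicylic acid, had 124, 208 and 221 in tcx5/6 D45, against 4485, 1400 and 4190 in Col-0 D40 (log2 -4.05 ± 0.47 SE, adjusted p = 0.0024). PBS3 (AT5G13320), the enzyme that takes isochorismate on towards salicylic acid, had 107, 122 and 63.5 in tcx5/6 D45, against 22725, 4525 and 5579 in Col-0 D40 (log2 -6.45 ± 0.59 SE, adjusted p = 0.0017). Both genes were lower in every tcx5/6 library. ALD1 (AT2G13810), the first enzyme of the immune signal pipecolic acid, had 17, 15.1 and 8.76 in tcx5/6 D45, against 5169, 699.5 and 1969 in Col-0 D40 (log2 -7.09 ± 0.69 SE). FMO1 (AT1G19250), which hydroxylates that signal and was named after its values were seen, had 0, 6.02 and 0 in tcx5/6 D45, against 4740, 394 and 967 in Col-0 D40 (log2 -9.31 ± 1.097 SE, adjusted p = 0.0025). PR1 (AT2G14610), the classic output of the pathway, had 949, 408 and 29.6 in tcx5/6 D45, against 75585, 10702 and 81738 in Col-0 D40 (log2 -7.47 ± 1.31 SE, adjusted p = 0.0065). PR2 (AT3G57260), a glucanase, differed less (log2 -3.10 ± 0.35 SE).

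Of 19 ethylene genes, 0 were higher and 12 lower (median -0.80), and 6 and 7 were lower without tcx5/6 replicate 2 and replicate 3. The lowered members included genes of synthesis. ACS7 (AT4G26200), an ACC synthase, was at 0 in all 3 tcx5/6 libraries, against 783, 74.8 and 109 in Col-0 D40. By the Col-0 mean, which replicate 1 raised, ACS7 was at least 369-fold lower against 3 reads over the group. ACS2 (AT1G01480), another ACC synthase, had 9.27, 4.52 and 0 in tcx5/6 D45, against 4205, 693 and 409 in Col-0 D40 (log2 -8.11 ± 1.101 SE, adjusted p = 0.0033). ACO4 (AT1G05010), which carries out the last step of synthesis, had 1513, 1433 and 2263 in tcx5/6 D45, against 20245, 8470 and 11257 in Col-0 D40 (log2 -2.87 ± 0.35 SE).

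Calls among abscisic acid and jasmonate genes were near the share over all genes. Of 24 abscisic acid genes, 3 were higher and 7 lower (median -0.41), with 1 higher without tcx5/6 replicate 2 and 4 lower without tcx5/6 replicate 3. Without Col-0 replicate 3 that median was -1.04. NCED2 (AT4G18350), a dioxygenase of abscisic acid synthesis, was at 0 in all 3 tcx5/6 libraries, against 994, 646 and 640.1 in Col-0 D40, at least 870-fold lower in tcx5/6. SAG113 (AT5G59220), a senescence phosphatase of this pathway, had 393, 410.4 and 135 in tcx5/6 D45, against 14856, 3464 and 1732 in Col-0 D40 (log2 -4.00 ± 0.78 SE, adjusted p = 0.0091). NCED4 (AT4G19170), a carotenoid cleavage enzyme related to NCED2, was named after its values were seen and was higher, with 20308, 23383 and 31911 in tcx5/6 D45, against 595, 10764 and 3234 in Col-0 D40 (log2 3.17 ± 0.92 SE, adjusted p = 0.032). The NCED4 call was lost without any 1 of the tcx5/6 libraries or Col-0 replicate 3, with adjusted p between 0.065 and 0.094. Of 17 jasmonate genes, 3 were higher and 5 lower (median 0.06), and 1 was higher without tcx5/6 replicate 3. AOS (AT5G42650), allene oxide synthase, had 8329, 7221 and 12962 in tcx5/6 D45, against 1488, 2317 and 1974 in Col-0 D40 (log2 2.28 ± 0.28 SE, adjusted p = 0.0027). JAZ1 (AT1G19180), a repressor that jasmonate itself induces, went the other way, with 743, 609.9 and 364 in tcx5/6 D45, against 17265, 3850 and 3524 in Col-0 D40 (log2 -3.49 ± 0.61 SE, adjusted p = 0.0064).

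**Figure D2:**
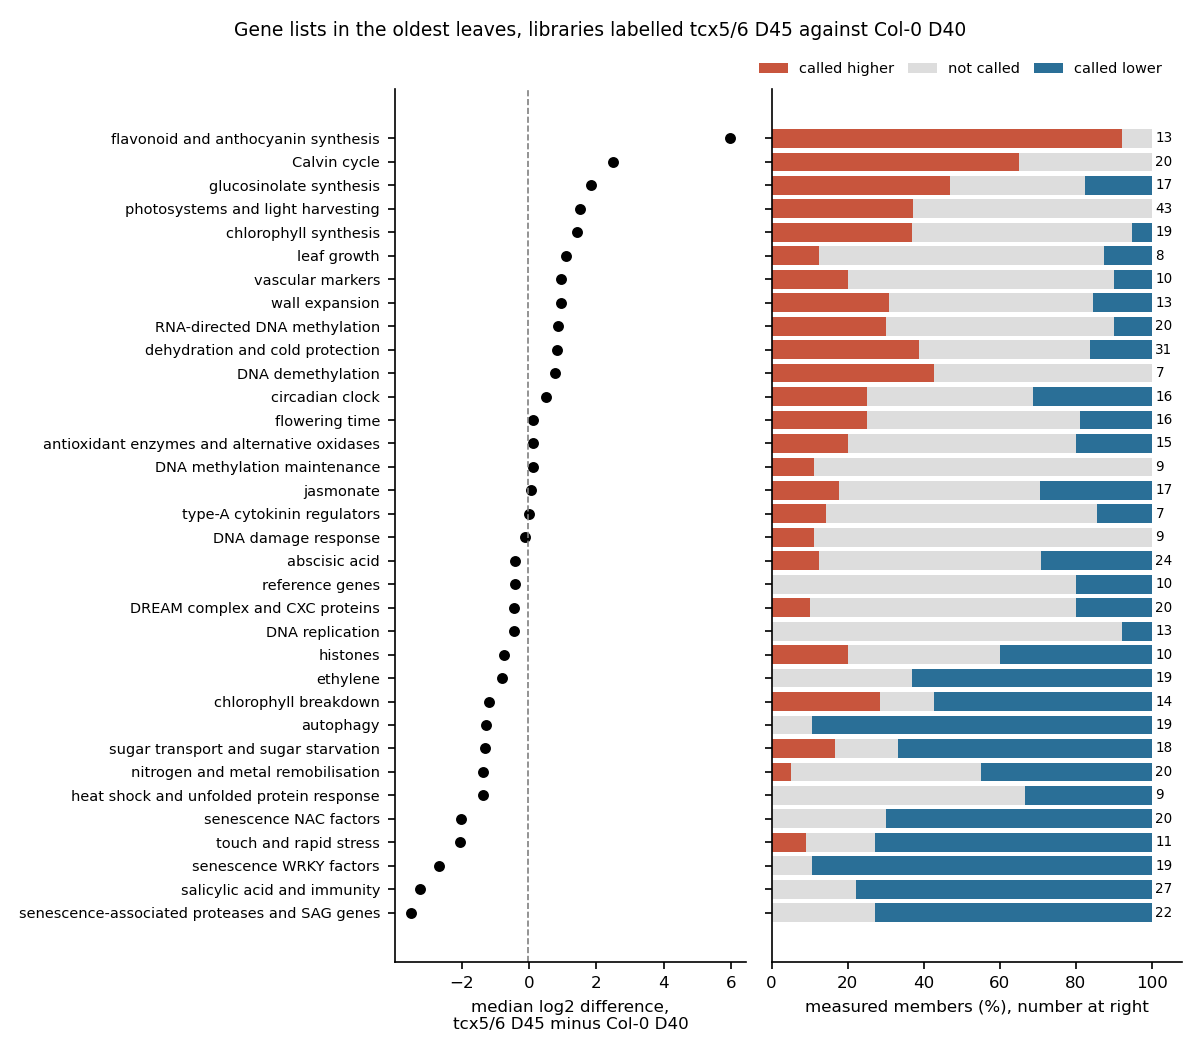
Left, median log2 difference (tcx5/6 D45 minus Col-0 D40) of each gene list with 7 or more measured members, with the median of all genes dashed at -0.03. Right, percent of measured members called higher (red), not called (grey) and called lower (blue), with the number measured. Flavonoid and anthocyanin synthesis lies highest, at 5.98, and the proteases and SAG genes lowest, at -3.52.

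Of 43 genes of the photosystems and light harvesting, 16 were higher in tcx5/6, 27 were not called and 0 were lower, with a median of 1.52. PSBS (AT1G44575), the photosystem II protein that lets excess light energy go as heat, had 6539, 6953 and 9456 in tcx5/6 D45, against 338, 1263 and 932 in Col-0 D40 (log2 3.36 ± 0.46 SE, adjusted p = 0.0033). FNR1 (AT5G66190), which passes electrons to NADP, had 8937, 10484 and 13820 in tcx5/6 D45, against 1106, 3873 and 3408 in Col-0 D40 (log2 2.16 ± 0.47 SE, adjusted p = 0.013). The summed level of the list was 433916, 651992 and 1292920 in tcx5/6 D45, against 111685, 386414 and 301749 in Col-0 D40, so tcx5/6 replicate 3 was the highest and Col-0 replicate 1 the lowest. The number of calls in this list rested on the fit and on single libraries: 38 members were higher and 1 lower with the replicate number as a block, 4 members were called without tcx5/6 replicate 2, 3 without tcx5/6 replicate 3, 10 without Col-0 replicate 1 and 24 without Col-0 replicate 2.

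Of 20 Calvin cycle genes, 13 were higher and 0 lower (median 2.48). FBA1 (AT2G21330), a plastid aldolase, had 8287, 8811 and 12639 in tcx5/6 D45, against 203, 937 and 734 in Col-0 D40 (log2 4.23 ± 0.54 SE, adjusted p = 0.0029). SBPASE (AT3G55800), the bisphosphatase that commits carbon to regeneration of the acceptor, had 4964, 5452 and 8217 in tcx5/6 D45, against 157, 745 and 766 in Col-0 D40 (log2 3.76 ± 0.59 SE, adjusted p = 0.0049). Calls in the list numbered 8, 8 and 6 without tcx5/6 replicate 1, 2 and 3. Of 19 chlorophyll synthesis genes, 7 were higher and 1 lower (median 1.44), but 3 and 1 were higher without tcx5/6 replicate 2 and replicate 3. PORC (AT1G03630), a light-dependent protochlorophyllide reductase, had 1322, 1524 and 2011 in tcx5/6 D45, against 92.3, 251 and 431 in Col-0 D40 (log2 2.88 ± 0.52 SE, adjusted p = 0.0071). The libraries are of whole leaves, so fewer cells with intact chloroplasts and less transcript per cell cannot be told apart.

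Flavonoid and anthocyanin synthesis had the highest median of the lists with 7 or more measured members. Of 13 genes measured, 12 were higher and 0 lower in tcx5/6, with a median of 5.98, and 9 were higher without tcx5/6 replicate 1. Without tcx5/6 replicate 3 that median was 8.03. TT8 (AT4G09820), a helix-loop-helix activator of the late genes, had 1209, 402 and 136 in tcx5/6 D45 and was at 0 in all 3 Col-0 libraries, at least 430-fold higher in tcx5/6 against 3 reads over the group. PAP1 (AT1G56650), the MYB factor that turns on the pathway, had 5996, 4804 and 2049 in tcx5/6 D45, against 208, 467 and 199 in Col-0 D40 (log2 3.85 ± 0.48 SE, adjusted p = 0.0027). LDOX (AT4G22880), which makes the coloured anthocyanidin, had 24938, 7098 and 566 in tcx5/6 D45, against 10.8, 4.005 and 4.76 in Col-0 D40 (log2 9.38 ± 1.23 SE, adjusted p = 0.0030). DFR (AT5G42800), the step before it, was named after its values were seen and had 31517, 10267 and 1540 in tcx5/6 D45, against 129, 18.7 and 20.23 in Col-0 D40 (log2 7.71 ± 1.149 SE, adjusted p = 0.0042). AT5MAT (AT3G29590) and UF3GT (AT5G54060), which decorate anthocyanins with malonate and sugar, were among the 10 named genes with the largest rises, at 9.55 and 8.43. In all of these genes tcx5/6 replicate 1 was the highest and replicate 3 the lowest, and none reached the Col-0 range.

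**Figure D3:**
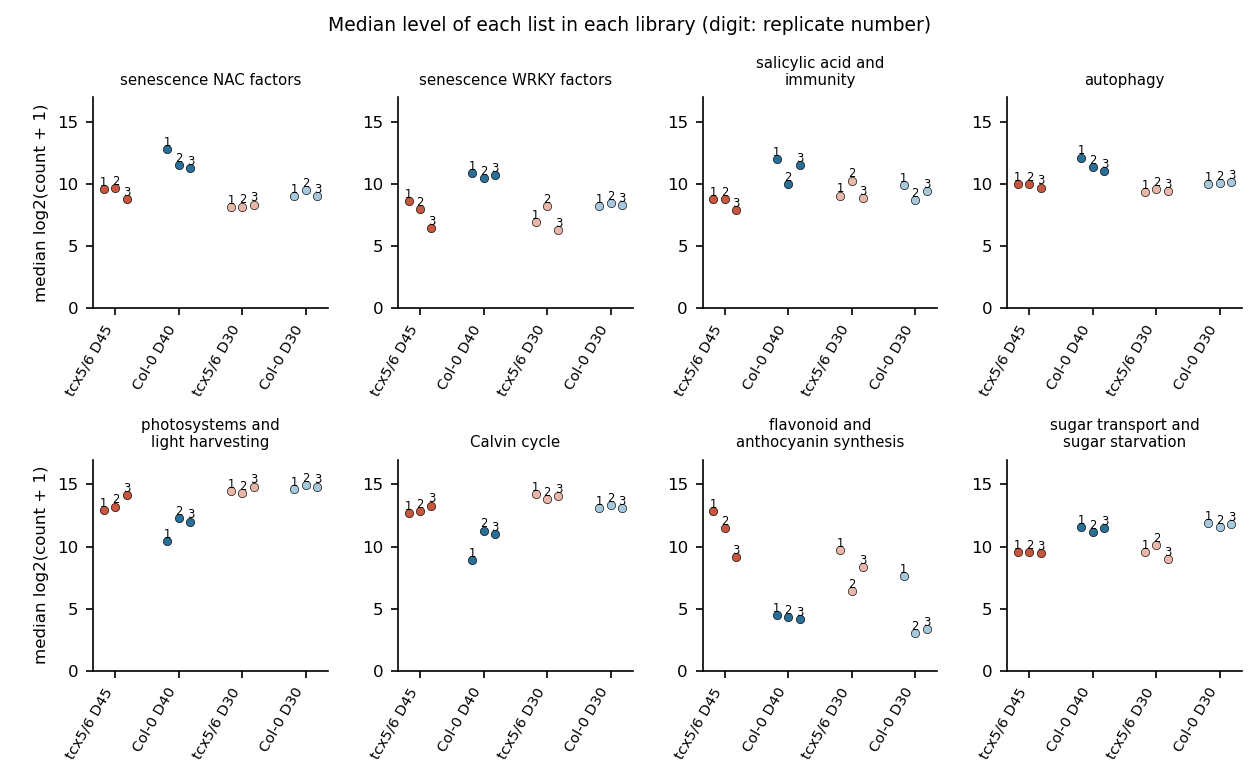
Median log2(count + 1) of the measured members of 8 gene lists in each library of tcx5/6 D45, Col-0 D40, tcx5/6 D30 and Col-0 D30, with the replicate number above each point. In tcx5/6 D45 the anthocyanin median lies at 12.89, 11.51 and 9.15, against 4.494, 4.299 and 4.142 in Col-0 D40, and the 2 oldest groups do not overlap in any of the 8 lists.

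Glucosinolates are sulphur-containing defence compounds of this plant family. Of 17 genes of their synthesis, 8 were higher and 3 lower (median 1.83), and 3, 2 and 2 were higher without tcx5/6 replicate 1, 2 and 3. Without Col-0 replicate 1 that median was 0.72. MYB28 (AT5G61420), the main activator of the aliphatic branch, had 3067, 4169 and 4906 in tcx5/6 D45, against 126, 646 and 696 in Col-0 D40 (log2 3.37 ± 0.62 SE, adjusted p = 0.0077). All 3 lower members belong to the indole branch. MYB51 (AT1G18570), an activator of that branch, had 295, 355 and 495 in tcx5/6 D45, against 2523, 897 and 2384 in Col-0 D40 (log2 -2.23 ± 0.42 SE, adjusted p = 0.0080). MYB122 (AT1G74080), a related activator, had 0, 10.5 and 0 in tcx5/6 D45, against 718, 198 and 233 in Col-0 D40 (log2 -7.16 ± 1.06 SE). CYP79B2 (AT4G39950), which opens the branch from tryptophan, had 332, 328 and 740.3 in tcx5/6 D45, against 14690, 2859 and 4483 in Col-0 D40 (log2 -3.73 ± 0.61 SE, adjusted p = 0.0053). MYB34 (AT5G60890), another indole activator, named after its values were seen, was higher instead, with 134, 319 and 387 in tcx5/6 D45, against 0, 50.7 and 14.3 in Col-0 D40 (log2 4.79 ± 1.33 SE, adjusted p = 0.028). The MYB34 call was lost without any 1 tcx5/6 library (adjusted p of 0.057 to 0.090).

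Of 31 dehydration and cold protection genes, 12 were higher and 5 lower (median 0.84), and 1 was lower without tcx5/6 replicate 1 and 2 without tcx5/6 replicate 2 or 3 or Col-0 replicate 1 or 2. COR15A (AT2G42540), a chloroplast protein that protects membranes on freezing, had 7978, 17968 and 25210 in tcx5/6 D45, against 588, 437 and 231 in Col-0 D40 (log2 5.30 ± 0.49 SE, adjusted p = 0.0017). GolS3 (AT1G09350), galactinol synthase, had 5173, 5746 and 5185 in tcx5/6 D45, against 21.5, 267 and 168 in Col-0 D40 (log2 5.74 ± 0.82 SE, adjusted p = 0.0037). CBF3 (AT4G25480), an activator of both genes in the cold, had 1631, 1841 and 1527 in tcx5/6 D45, against 274, 402 and 238 in Col-0 D40 (log2 2.48 ± 0.23 SE, adjusted p = 0.0017). The 3 genes were higher in every tcx5/6 library.

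Of 16 clock genes, 4 were higher and 5 lower (median 0.49), and 2, 1 and 2 were higher without tcx5/6 replicate 1, 2 and 3. ELF4 (AT2G40080), a component of the evening complex, had 281, 309 and 339 in tcx5/6 D45, against 1717, 1611 and 1202 in Col-0 D40 (log2 -2.27 ± 0.20 SE, adjusted p = 0.0017). LUX (AT3G46640), its DNA-binding partner, had 108, 136 and 136 in tcx5/6 D45, against 555, 764 and 583 in Col-0 D40 (log2 -2.31 ± 0.24 SE). TOC1 (AT5G61380), an evening repressor, was lower too (log2 -1.49 ± 0.18 SE). LNK1 (AT5G64170), a coactivator with a morning peak, had 7995, 7386 and 6631 in tcx5/6 D45, against 2725, 3049 and 2268 in Col-0 D40 (log2 1.46 ± 0.19 SE, adjusted p = 0.0030). The labels give no hour of harvest for either group, so a difference in harvest time and a difference in level cannot be told apart for these genes.

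Of 16 flowering genes, 4 were higher and 3 lower (median 0.13), with 2 higher without any 1 tcx5/6 library. The 3 lower calls fell to 1 without tcx5/6 replicate 1 or any 1 Col-0 library, and to 0 without tcx5/6 replicate 2 or 3. SPL9 (AT2G42200), a factor of the change from juvenile to adult leaves, had 148, 183 and 193 in tcx5/6 D45, against 0, 4.005 and 4.76 in Col-0 D40 (log2 5.83 ± 0.77 SE, adjusted p = 0.0030). Of 15 antioxidant genes, 3 were higher and 3 lower, and 1 was higher without any 1 tcx5/6 library. Calls in the flowering and antioxidant lists were near the share over all genes, 16.5% higher and 20.4% lower. The catalase CAT1 (AT1G20630) had 1894, 1390 and 1418 in tcx5/6 D45, against 27098, 11942 and 5888 in Col-0 D40 (log2 -2.998 ± 0.50 SE, adjusted p = 0.0058). Of 11 touch and rapid stress genes, 1 was higher and 8 lower (median -2.04), with 5 lower without tcx5/6 replicate 2 or 3 and 0 higher without any 1 tcx5/6 library. Of 9 heat shock and unfolded protein genes, 0 were higher and 3 lower.

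In the DREAM complex itself and its relatives the calls were near or below the share over all genes, 16.5% higher and 20.4% lower. Of 20 DREAM and CXC genes, 2 were higher and 4 lower (median -0.44), and 2 were lower without Col-0 replicate 1 or 2 or any 1 tcx5/6 library. TSO1 (AT3G22780), a CXC protein related to TCX5, had 403, 386 and 475 in tcx5/6 D45, against 40.0, 78.8 and 131 in Col-0 D40 (log2 2.48 ± 0.43 SE, adjusted p = 0.0065). ALY1 (AT5G27610), a LIN9-like subunit, had 134, 179 and 156 in tcx5/6 D45, against 655, 360.4 and 444 in Col-0 D40 (log2 -1.60 ± 0.29 SE, adjusted p = 0.0072). Of 21 mitosis genes 2 passed the filter on low counts and 0 were called, and of 21 replication genes 13 passed it and 1 was lower, a call lost without tcx5/6 replicate 1 or 3 or Col-0 replicate 1 or 3. Of 10 histone genes 2 were higher and 4 lower, with 1 higher without any 1 of the 6 libraries. Without Col-0 replicate 1 or tcx5/6 replicate 2 or 3, 1 was lower, and without tcx5/6 replicate 1, 2 were. H1.3 (AT2G18050), a linker histone induced by drought, had 6523, 5225 and 6056 in tcx5/6 D45, against 469, 1121 and 1195 in Col-0 D40 (log2 2.78 ± 0.36 SE, adjusted p = 0.0029). HTA6 (AT5G59870), a variant of histone H2A, had 60.3, 51.2 and 48.2 in tcx5/6 D45, against 209, 550.0 and 364 in Col-0 D40 (log2 -2.69 ± 0.40 SE, adjusted p = 0.0042).

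Maintenance of DNA methylation is a process on which TCX5 and TCX6 are known to act. Of 9 maintenance genes measured, 1 was higher and 0 lower. MET1 (AT5G49160), the methyltransferase for CG sites, had 69.5, 53.5 and 30.7 in tcx5/6 D45, against 29.2, 37.4 and 19.04 in Col-0 D40, and was not called (log2 0.80 ± 0.52 SE, adjusted p = 0.26). CMT3 (AT1G69770), which acts at CHG sites, had 71.9, 86.6 and 30.7 in tcx5/6 D45, against 84.6, 60.1 and 33.3 in Col-0 D40 (log2 0.06 ± 0.56 SE, adjusted p = 0.94). DDM1 (AT5G66750), a nucleosome remodeller, had 43.3, 15.1 and 31.8 in tcx5/6 D45, against 20.0, 29.4 and 16.7 in Col-0 D40 (log2 0.35 ± 0.59 SE, adjusted p = 0.66). The groups overlapped in all 3. The called gene was CMT2 (AT4G19020), a chromomethylase for CHH sites, with 134, 172 and 266 in tcx5/6 D45, against 44.6, 53.4 and 64.2 in Col-0 D40 (log2 1.76 ± 0.38 SE, adjusted p = 0.012).

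In RNA-directed DNA methylation 6 of 20 genes were higher and 2 lower (median 0.86), with 2 higher and 1 lower without any 1 tcx5/6 library. Without Col-0 replicate 1 that median was 0.56, and 1 was lower. CLSY1 (AT3G42670), a remodeller that recruits RNA polymerase IV, had 263, 181 and 197 in tcx5/6 D45, against 52.3, 21.4 and 40.5 in Col-0 D40 (log2 2.53 ± 0.43 SE, adjusted p = 0.0059). Its relative CLSY3 (AT1G05490, chromatin remodeling 31 in the annotation) moved the other way, with 62.6, 38.4 and 16.4 in tcx5/6 D45, against 385, 279 and 226 in Col-0 D40 (log2 -3.04 ± 0.52 SE, adjusted p = 0.0061). Demethylation had 3 of 7 genes higher and 0 lower. ROS1 (AT2G36490), the main DNA glycosylase that removes methylcytosine in leaves, had 259.6, 176 and 245 in tcx5/6 D45, against 29.2, 74.8 and 26.2 in Col-0 D40 (log2 2.505 ± 0.47 SE, adjusted p = 0.0082). DML3 (AT4G34060), a related glycosylase, was higher by 1.51 ± 0.26 SE, and IDM1 (AT3G14980), an acetyltransferase that opens sites for ROS1, by 1.95 ± 0.37 SE.

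Tissue markers were read in the same libraries. Flower markers summed to at most 65.7 in tcx5/6 D45 and 73.8 in Col-0 D40, and shoot meristem markers to at most 0.753 in tcx5/6 D45 and 18.7 in Col-0 D40. Photosystem genes summed to at least 111685 in every library. The stomatal lineage genes SPCH, MUTE, EPF2 and BASL, the meristem gene WUS, the petal gene AP3 and the root genes WOX5 and RHD6 were at 0 in all 6 libraries. The epidermis markers summed to between 1908 and 2506 in tcx5/6 D45, against 198 and 412.5 in Col-0 D40. Both epidermis markers measured were higher in tcx5/6, among them FDH (AT2G26250), a wax and cutin enzyme, with 1433, 1431 and 1765 in tcx5/6 D45, against 83.1, 276 and 149.9 in Col-0 D40 (log2 3.34 ± 0.41 SE, adjusted p = 0.0027). The guard cell markers summed to between 1022 and 1844 in tcx5/6 D45, against 5252 and 6758 in Col-0 D40. Of the 3, KAT1 (AT5G46240), a potassium channel, was lower, with 1434, 982 and 618 in tcx5/6 D45, against 5082, 6503 and 5316 in Col-0 D40 (log2 -2.55 ± 0.31 SE, adjusted p = 0.0026). KAT1 made most of each guard cell sum. The other 2 guard cell markers were not called, and the median log2 difference of the 3 was 0.75, or 0.27 without Col-0 replicate 1. Of 10 vascular markers 2 were higher and 1 lower (1 and 0 without tcx5/6 replicate 2 or 3, 1 and 1 without tcx5/6 replicate 1 or Col-0 replicate 1), with sums of 18545 to 22894 in tcx5/6 D45 and 20221 to 22314 in Col-0 D40. The myrosin cell and trichome markers summed to between 1059.5 and 2254 in tcx5/6 D45, against 181.5 and 332 in Col-0 D40. Of the 3 measured, 1 was higher and 0 lower (median log2 1.96). The part of cell type shares in the lists above was not tested. Of 10 reference genes 2 were lower and 0 higher, with a median of -0.43, and 0 were lower without tcx5/6 replicate 1 and 1 without tcx5/6 replicate 2 or 3.

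The last day both lines share is D30, and the difference between the lines in the oldest leaves was set against the difference at D30 in 1 fit of 12 libraries. Of 21048 genes tested, 2679 had a more positive and 2523 a more negative difference in the oldest leaves than at D30, which is 12.7% and 12%, or 24.7% in all. Of the 7316 genes called in the oldest leaves, 3024 (41.3%) were also called in this test with the same sign.

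In the immunity list 14 of 27 members had a more negative difference than at D30 and 0 a more positive one, and the median difference between the lines at D30 was 0.09. PBS3 averaged 414 ± 448 in tcx5/6 D30 and 416 ± 222 in Col-0 D30 (SD, n = 3 each), and 97.4 ± 30.3 in tcx5/6 D45 and 10943 ± 10217 in Col-0 D40. The photosystem list had 16 of 43 members with a more positive difference and 0 with a more negative one, and its D30 median was -0.25. The list of sugar transport and sugar starvation had a D30 median of -1.51. DIN10 averaged 462 ± 550 in tcx5/6 D30 and 25674 ± 8614 in Col-0 D30, and 79.0 ± 58.9 in tcx5/6 D45 and 8165 ± 3026 in Col-0 D40. ASN1 averaged 3.74 ± 3.87 in tcx5/6 D30 and 1578 ± 316 in Col-0 D30, and SAG20 averaged 1149.9 ± 90.6 in tcx5/6 D30 and 6724 ± 873 in Col-0 D30. Of the 18 members of the sugar list, 4 had a more positive and 2 a more negative difference in the oldest leaves. The flavonoid and anthocyanin list had a D30 median of 3.88, and PAP1 averaged 845 ± 441 in tcx5/6 D30 and 91.9 ± 131 in Col-0 D30.

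**Figure D4:**
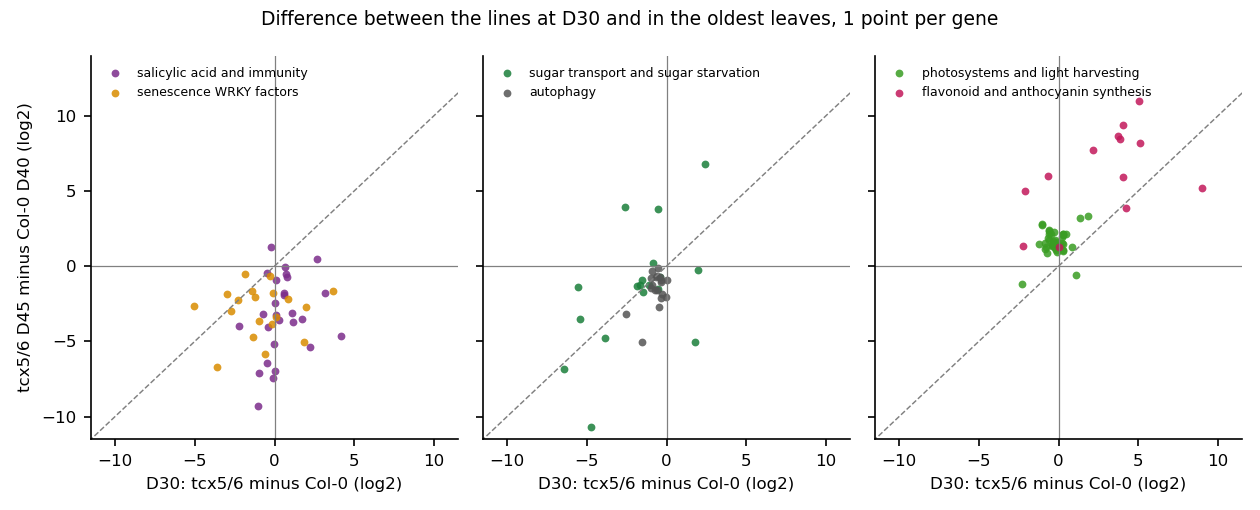
Log2 difference between tcx5/6 and Col-0 at D30 (x) and between tcx5/6 D45 and Col-0 D40 (y) for the measured members of 6 gene lists, 1 point per gene, with equal differences on the dashed line. Salicylic acid and immunity genes spread about 0 at D30 (median 0.09) and lie mostly below 0 in the oldest leaves (median -3.24). The sugar list has medians of -1.51 and -1.30 on these axes.

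Among the named genes with the most negative change since D30 were PGAZAT, DOX1 and SAG12. At D30 their highest library was Col-0 replicate 1 in each case, with 0.956 for PGAZAT, 137 for DOX1 and 70.7 for SAG12. TPS03 (AT4G16740), a terpene synthase that makes volatiles, crossed over. It had 1626, 106 and 871 in tcx5/6 D30, against 0, 13.7 and 0 in Col-0 D30, and 144, 69.3 and 76.7 in tcx5/6 D45, against 3108, 3678 and 1349 in Col-0 D40 (change of the difference -12.52 ± 1.56 SE, adjusted p = 9.5e-04). ELP (AT1G12090), an extensin-like protein, was the named gene with the most positive change, with 2266, 2797 and 5091 in tcx5/6 D45, against 0, 98.8 and 1.19 in Col-0 D40. At D30 it averaged 9843 ± 5686 in tcx5/6 and 9064 ± 3678 in Col-0 (change of the difference 9.04 ± 1.83 SE, adjusted p = 0.0066). ROS1 averaged 507 ± 64.4 in tcx5/6 D30 and 396 ± 125 in Col-0 D30, and its difference grew by 2.102 ± 0.55 SE (adjusted p = 0.019).

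The whole transcript profile of tcx5/6 D45 was nearer to D30 and D23 leaves of both lines than to Col-0 D40. Over 19822 genes the Spearman correlation of group means with tcx5/6 D45 was 0.948 for tcx5/6 D30, 0.904 for Col-0 D30 and 0.823 for Col-0 D40. It was 0.876 for tcx5/6 D23 and 0.842 for Col-0 D23. For Col-0 D40 it was 0.823 with tcx5/6 D45, 0.759 with tcx5/6 D30 and 0.812 with Col-0 D30. These correlations are a description, since genes are not independent and the groups share a normalisation.

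Single regulators were followed over all days. NAP averaged 12.2 ± 7.47 at D13, 16.6 ± 11.6 at D18, 21.9 ± 11.4 at D23, 132 ± 90.5 at D30 and 1613 ± 1076 at D45 in tcx5/6 (SD, n = 3 each). In Col-0 it averaged 42.04 ± 10.7 at D13, 109 ± 46.1 at D18, 274 ± 21.5 at D23, 973 ± 266 at D30 and 21995 ± 9998 at D40. NAP at D45 in tcx5/6 thus lay between the D30 and D40 means of Col-0. ORE1 was at 0 in all tcx5/6 libraries at D13 and D18, and its mean at D45 in tcx5/6, 1446 ± 430.0, was close to that of Col-0 at D30, 1317 ± 395. BFN1 averaged 88.8 ± 6.08 at D13, 16.5 ± 12.1 at D30 and 3.25 ± 1.53 at D45 in tcx5/6. In Col-0 it averaged 89.6 ± 40.8 at D13, 8.32 ± 4.15 at D30 and 3995 ± 2620 at D40, so the means were lower at D30 than at D13 in both lines.

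**Figure D5:**
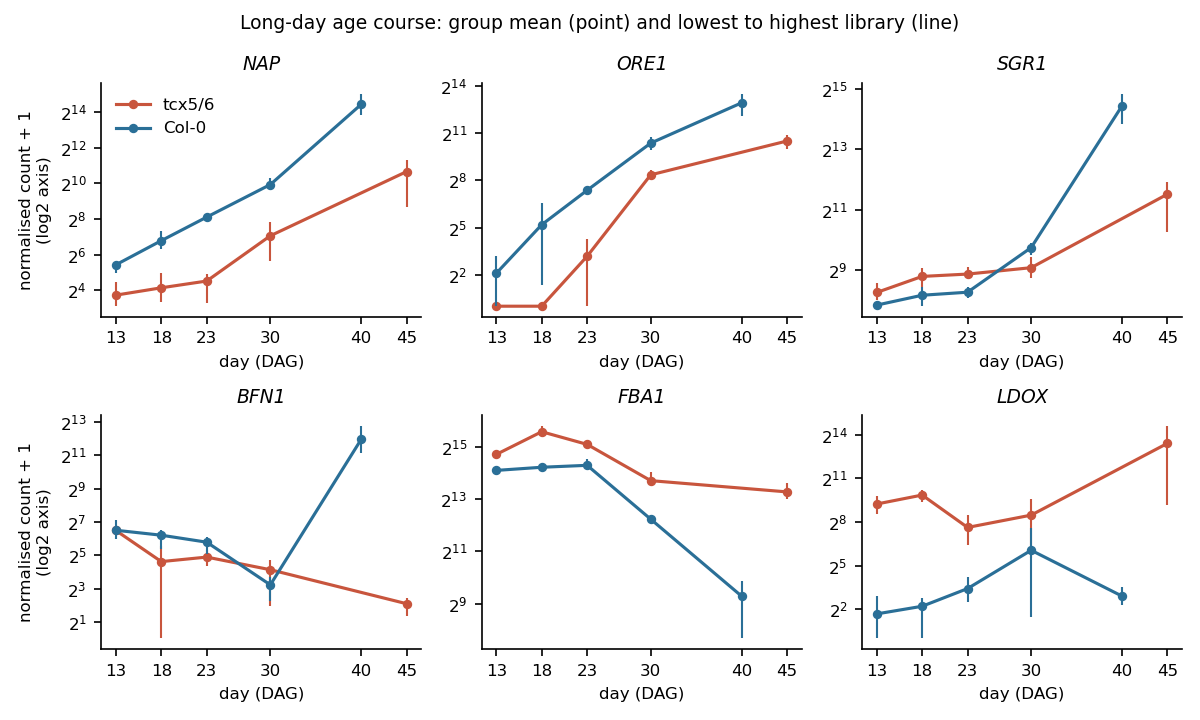
Normalised counts plus 1 on a log2 axis against day (DAG) for 6 genes under long days, tcx5/6 in red and Col-0 in blue, points at the group mean and lines from the lowest to the highest of 3 libraries. SGR1 at the last day averages 2921 in tcx5/6 and 22341 in Col-0, and LDOX averages 10867 in tcx5/6 and 6.51 in Col-0.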

How the data were processed

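Polyadenylated RNA of first true leaves was sequenced in 45 libraries. Per the submitters' processing notes, reads passed through STAR 2.7.1a and HTSeq 2.0 after trimming (Trim Galore 0.6.6 with cutadapt), and DESeq2 1.40.1 was used. The build was not given in the sources used here. The deposited signal values are gene counts divided by a size factor per library by the authors. Dividing by the value of 1 read in each library gave whole reads for all values at a tolerance of 0.01. The table holds 37336 genes and 5 summary entries, of which reads in no gene made 46.2% to 47.5% of the reads in the 6 libraries, and 37051 genes matched a RefSeq locus. Libraries were not stranded, so reads of overlapping genes on opposite strands cannot be told apart.

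Values were tested as log2(value + 1) with limma 3.58.1 in R 4.3.3 on the 6 libraries, for genes with 10 or more in at least 3 of them, and differences on this scale understate low genes. The change since D30 was an interaction term over 12 libraries. Calls had a Benjamini-Hochberg adjusted p under 0.05. Floors of 3 reads over a group cover counting error only. Folds against them use the mean of the other group, which 1 high library can raise. edgeR 4.0.16 and DESeq2 1.42.0 on whole reads, other pseudocounts, filters and scalings, a replicate block, all libraries in 1 fit, and leaving out each library were alternatives. On simulated data limma recovered 100% of log2 changes of 2 and 33.3% of log2 changes of 1 with the design of the oldest leaves. For the change since D30 these were 81% and 12.1%. The simulation gave every library the same spread, and 96 to 100 genes a change of each size. In the data the median SD (log2) was 0.43 in Col-0 D40 and 0.27 in tcx5/6 D45, and 36.9% of genes were called. The simulated shares therefore do not give the recovery in these data.

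Named genes were the 10 highest and 10 lowest called genes with a symbol (8039 of those tested have one) and a mean of 100 or more, a preset few (TCX5, TCX6, MET1, CMT3, DDM1, ROS1, SAG12, PR1), and up to 4 called members per list by smallest adjusted p. For the change since D30 they were the 5 highest and 5 lowest under the same filter on call, symbol and mean. The comparison and the 43 gene lists were chosen with earlier results of these data known. List members without a name in the reference, 9 in all, were left out.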

Additional observations from a re-analysis of the deposited data

Results flagged for a closer look

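In 11 named genes, the 5 highest and 5 lowest for the change since D30 and the preset ROS1, the difference between the lines in the oldest leaves differed from that at D30 by limma's test of the difference itself. Values are the log2 change of the difference, which depend on the pseudocount for genes with a group at 0. The difference was more positive in ELP (9.038), DREB26 (8.730), BZIP61 (8.602), MEE3 (8.578), EXL3 (8.223) and ROS1 (2.102). DREB26, a dehydration-responsive factor, had 25.5, 9.04 and 6.57 in tcx5/6 D45, against 30.8, 30.7 and 0 in Col-0 D40, and 0.967, 0 and 0 in tcx5/6 D30, against 591, 172 and 733 in Col-0 D30. The change in DREB26 thus lay in the D30 leaves. BZIP61 was at 0 in all tcx5/6 D30 and all Col-0 D40 libraries, and had 94.6, 284 and 526 in Col-0 D30. EXL3 had 142, 229 and 153 in tcx5/6 D45, against 0, 52.1 and 20.23 in Col-0 D40, and 143, 115 and 239 in tcx5/6 D30, against 2133, 2464 and 4504 in Col-0 D30.

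The change was more negative in TPS03 (-12.516), PGAZAT (-12.105), DOX1 (-11.618), SAG12 (-11.549) and SDR4 (-11.086). SDR4, a short-chain dehydrogenase, had 6.18, 41.4 and 0 in tcx5/6 D45, against 3892, 1314 and 1450 in Col-0 D40. The change of SAG12 was not called by edgeR's quasi-likelihood test or by DESeq2 on whole reads, with adjusted p = 0.98 and 0.43, and that of PGAZAT was not called by edgeR.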

How the results depend on the processing

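No called gene named here changed sign under the alternatives tried. CMT3, which was not called, did under quantile normalisation (-0.09) and without tcx5/6 replicate 1 or 2 or Col-0 replicate 3 (lowest -0.30). Of the list medians plotted, those of jasmonate, antioxidant, cytokinin, DNA damage and wall expansion genes changed sign under at least 1 alternative. The median over all genes (-0.03) turned positive with TMM factors (0.04), quantile normalisation (0.07), edgeR (0.02) and DESeq2 (0.00), and after quantile normalisation 3738 genes were higher and 3461 lower. With all 45 libraries in 1 fit, 11573 genes were called in the oldest leaves, 5624 of them higher, and 8390 for the change since D30, 4456 more positive and 3934 more negative; the cause was not tested. Leaving out 1 library at a time gave 3906 to 6983 genes called, 1492 to 3348 higher and 2414 to 3894 lower, and for the change since D30 3879 to 6356, 1994 to 3480 more positive and 1885 to 2876 more negative. Deviations of same-numbered libraries correlated at 0.22, -0.14 and 0.11, which with 3 libraries per group cannot decide whether they pair. With the replicate block 3282 genes were higher and 4152 lower, and 38 of the 43 photosystem genes higher and 1 lower. On whole reads edgeR called 2979 higher and 3640 lower, DESeq2 4006 and 4485. Of the photosystem genes, 10 were called higher by edgeR, 25 after quantile normalisation, 35 by DESeq2 and 40 with all libraries in 1 fit. Of the alternatives run, MET1 was called only with all libraries in 1 fit (0.80, adjusted p = 0.0044).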
